A study of Mus musculus with 12 samples.

Results

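Formyl peptide receptors and members of the Ms4a family were described in cultured mouse macrophages. The set holds the receptors Fpr1 and Fpr2 and the 6 Ms4a genes Ms4a4a, Ms4a4c, Ms4a6b, Ms4a6c, Ms4a6d and Ms4a7. They are 8 of the 54582 gene symbols that stand in both deposited count tables, and all 8 were found. They were picked with earlier results on these libraries in hand, because the difference between the genotypes in Fpr1, Fpr2 and Ms4a4a turned round between the culture conditions. Values that compare the genotypes are therefore given for the members as a description, without a test. All 8 passed the filter on low counts in every fit.

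RNA sequencing was done on primary bone marrow-derived macrophages from mice of 6 to 8 weeks, with 3 libraries in each of 4 groups. KO cells carry the genotype written Kif13b-/-, which another label field calls a knock down, and WT cells are wild type. Kif13b encodes a kinesin, a motor that moves cargo along microtubules. KO + AC and WT + AC cells were cultured for 90 min with 5 apoptotic Jurkat cells per macrophage (AC), Jurkat being a human T cell leukaemia line, whereas KO and WT cells had none. The labels name tibial marrow as the source and give no strain. The serum percentages in the labels, 12, 13 and 14% for the KO and 10, 10 and 11% for the WT libraries, step up by 1 from WT 2 to KO 3 along the list and are in doubt. If they are real, every KO library had more serum than every WT library, and serum and genotype cannot be told apart. The labels do not say if replicates are different mice or different cultures, so p-values measure the spread between libraries, which may be technical. The libraries with and without AC are in separate tables, so condition and table cannot be told apart.

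FPR1 and FPR2 are G protein-coupled receptors of myeloid cells that sense N-formylated peptides from bacteria and mitochondria. Their activation drives chemotaxis, degranulation and the oxidative burst, and FPR2 also binds annexin A1 and serum amyloid A. MS4A proteins pass the cell membrane several times and are related to CD20, the B cell antigen encoded by Ms4a1. Several of them mark macrophages, and MS4A4A associates with the beta-glucan receptor dectin-1 (Clec7a) in lipid rafts.

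The receptors lie side by side on chromosome 17 and the Ms4a members in a cluster on chromosome 19 (GENCODE vM21, GRCm38). Fpr1 spans chr17:17876471-17883940 on the minus strand, with 1324 bp of exon, and Fpr2 spans chr17:17887824-17893952 on the plus strand, with 1296 bp. Within the cluster, Ms4a7 (chr19:11321039-11336146, minus strand, 4453 bp of exon) is followed by Ms4a4a (chr19:11375523-11392790, plus strand, 836 bp) and Ms4a4c (chr19:11404770-11427246, plus strand, 1751 bp). Ms4a6c (chr19:11469366-11482192, plus strand, 2050 bp), Ms4a6b (chr19:11516512-11531256, plus strand, 4485 bp) and Ms4a6d (chr19:11586604-11604849, minus strand, 1735 bp) lie beyond them. Ms4a4a is the member with the least exonic sequence.

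Promoters are shown for the members whose genotype difference turned round, as the sequence from which their transcripts start. Sequences come from RefSeq (GRCm38.p6), read along the gene's strand from 250 bases before to 50 bases after the start, and 7 of the 8 members had an entry. Capitals mark GAGGAA, a core of the sites bound by PU.1, the myeloid transcription factor encoded by Spi1, on either strand.
Fpr1, chr17:17883890-17884189, minus strand: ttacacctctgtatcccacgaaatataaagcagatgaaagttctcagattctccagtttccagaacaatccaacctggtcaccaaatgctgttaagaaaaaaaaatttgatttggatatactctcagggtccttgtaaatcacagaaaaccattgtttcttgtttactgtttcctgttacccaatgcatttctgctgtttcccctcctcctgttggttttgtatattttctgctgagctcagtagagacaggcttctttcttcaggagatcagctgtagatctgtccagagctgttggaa
Fpr2, chr17:17887574-17887873, plus strand: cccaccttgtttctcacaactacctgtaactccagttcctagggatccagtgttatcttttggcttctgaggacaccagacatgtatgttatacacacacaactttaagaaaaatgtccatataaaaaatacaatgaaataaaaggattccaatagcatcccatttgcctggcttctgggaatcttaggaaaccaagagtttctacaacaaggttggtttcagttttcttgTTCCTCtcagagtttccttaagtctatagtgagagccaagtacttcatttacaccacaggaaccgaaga
Ms4a4a, chr19:11375238-11375537, plus strand: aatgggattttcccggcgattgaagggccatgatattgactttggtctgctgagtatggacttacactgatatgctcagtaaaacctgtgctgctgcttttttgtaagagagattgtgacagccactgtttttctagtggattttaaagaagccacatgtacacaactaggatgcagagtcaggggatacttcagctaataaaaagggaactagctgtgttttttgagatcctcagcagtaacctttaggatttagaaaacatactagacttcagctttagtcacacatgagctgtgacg
GAGGAA stood once in the Fpr2 window, beginning at position -19 from the start and on the opposite strand, and was in neither the Fpr1 nor the Ms4a4a window. The AP-1 motif TGANTCA and the C/EBP motif TTGCNNAA, also searched on both strands, were in none of the 3 windows. Of 32851 mouse promoters of this length, 28.3% held GAGGAA, 7.81% held TGANTCA and 10.8% held TTGCNNAA. A match is a run of letters and not a measured binding site. Fpr1 and Fpr2 shared no run longer than 10 bases.

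The promoters of Ms4a6b and Ms4a6c are shown for contrast, because these neighbours start from related sequence and differed in profile. The Ms4a6c counts are uncertain, as given below. Capitals mark their longest identical run, 48 bases long.
Ms4a6b, chr19:11518309-11518608, plus strand: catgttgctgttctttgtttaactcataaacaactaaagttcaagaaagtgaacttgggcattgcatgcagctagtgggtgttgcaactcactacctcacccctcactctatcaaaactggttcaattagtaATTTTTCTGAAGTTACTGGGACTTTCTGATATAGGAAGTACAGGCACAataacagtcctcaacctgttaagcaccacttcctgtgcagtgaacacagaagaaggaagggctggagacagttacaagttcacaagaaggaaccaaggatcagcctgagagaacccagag
Ms4a6c, chr19:11469118-11469417, plus strand: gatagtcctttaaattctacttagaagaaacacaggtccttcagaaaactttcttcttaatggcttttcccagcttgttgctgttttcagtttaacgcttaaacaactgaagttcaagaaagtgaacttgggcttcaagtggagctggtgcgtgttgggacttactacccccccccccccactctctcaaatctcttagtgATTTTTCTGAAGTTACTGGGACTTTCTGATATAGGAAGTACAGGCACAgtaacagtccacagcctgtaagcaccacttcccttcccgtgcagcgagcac
The shared run begins at position -118 from the Ms4a6b start and at -49 from the Ms4a6c start. Among the 21 pairs of member promoters compared, the next longest shared run was 10 bases. None of the 3 motifs was in either window.

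Total counts were 18351051 to 18770757 in KO, 18256622 to 18461359 in WT, 17160248 to 17285594 in KO + AC and 17000976 to 17256902 in WT + AC libraries. Counts were scaled to counts per 1000000 counts of the adjusted library total (CPM). Libraries with AC had counts for 31787 to 32801 symbols, against 18335 to 18540 in libraries without. Kif13b, the targeted gene, had 19.1, 23.1 and 25.9 CPM in KO, against 35.9, 33.4 and 33.2 CPM in WT libraries (log2 fold change -0.59, SE 0.135, edgeR adjusted p = 0.0087). In the libraries labelled KO + AC it had 89.1, 88.4 and 89.5 CPM, against 81.3, 77.6 and 81.5 CPM in WT + AC (log2 0.13, SE 0.0397, edgeR adjusted p = 0.0261). The targeted gene thus goes against the KO label with AC, and every KO + AC direction below is that of the libraries labelled so. Macrophage markers (7 of 7 matched, among them Adgre1, Csf1r and Lyz2) summed to 30500 to 38000 CPM in KO, 30100 to 32600 in WT, 14800 to 15100 in KO + AC and 12300 to 13100 CPM in WT + AC. Most of each sum was Lyz2, which averaged 28700 CPM in KO, 25100 in WT, 10700 in KO + AC and 8960 CPM in WT + AC. With AC against without, Csf1r, Itgam and Mrc1 were higher and Cd68, Fcgr1 and Lyz2 lower (edgeR adjusted p under 0.05). Adgre1 did not differ at that threshold.

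Without AC, Fpr1 RNA was at 2.85, 2.01 and 2.99 CPM in KO libraries, against 11.3, 10.2 and 8.98 CPM in WT libraries, from 30 to 49 reads and 145 to 188 reads. Every KO library lay below every WT library, as for 17.2% of all tested genes, and the fitted log2 fold change was -1.95 (SE 0.189). With AC, Fpr1 was at 93.6, 81.1 and 76.0 CPM in KO + AC libraries, against 44.6, 42.7 and 45.5 CPM in WT + AC libraries. The order of the genotypes was the opposite one, again with no overlap, at a log2 fold change of 0.89 (SE 0.0627). Fpr1 had the 8th largest genotype difference of 12640 genes without AC and the 68th largest of 16467 with AC, ranked by absolute log2 fold change.

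Fpr2 had the same order of groups at lower levels. It was at 1.70, 0.803 and 1.71 CPM in KO libraries (25, 12 and 28 reads), against 3.18, 2.45 and 3.47 CPM in WT libraries (53, 40 and 56 reads). The groups did not overlap, and the log2 fold change was -1.10 (SE 0.272). With AC it was at 41.0, 36.5 and 35.7 CPM in KO + AC libraries, against 18.03, 17.01 and 18.8 CPM in WT + AC libraries, a log2 fold change of 1.05 (SE 0.0629). That was the 28th largest of 16467 genotype differences with AC, ranked by absolute log2 fold change. Of the 1295 windows of 50 bases in Fpr2 transcripts, 31.5% also stand in other genes, 368 of them in Gm5966 and 82 in Fpr3. Both of those genes had 0 counts in all 12 libraries. How reads that match several genes were counted is not given in the sources used here. The 0 counts therefore do not show if Fpr2 lost such reads, and its level and its ratio to Fpr1 carry this limit.

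The balance of the receptors is given as a description and was not tested. Fpr1 had 1.68, 2.5 and 1.75 counts per Fpr2 count in KO libraries, against 3.55, 4.15 and 2.59 in WT libraries, with no overlap. The margin was small and rests on few reads. The nearest ratios were 2.5 in KO 2 (30 Fpr1 and 12 Fpr2 reads) and 2.59 in WT 3 (145 and 56 reads). With AC the ratio was 2.28, 2.22 and 2.13 in KO + AC, against 2.47, 2.51 and 2.42 in WT + AC libraries, in the same order. Both receptors were thus lower in KO and higher in KO + AC than in their WT counterparts, with the larger fitted difference in Fpr1 without AC and in Fpr2 with AC. No other formyl peptide receptor gene of the annotation exceeded 1 count in any library, among Fpr3, Fpr-rs3, Fpr-rs4, Fpr-rs5, Fpr-rs6 and Fpr-rs7.

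**Figure D1:**
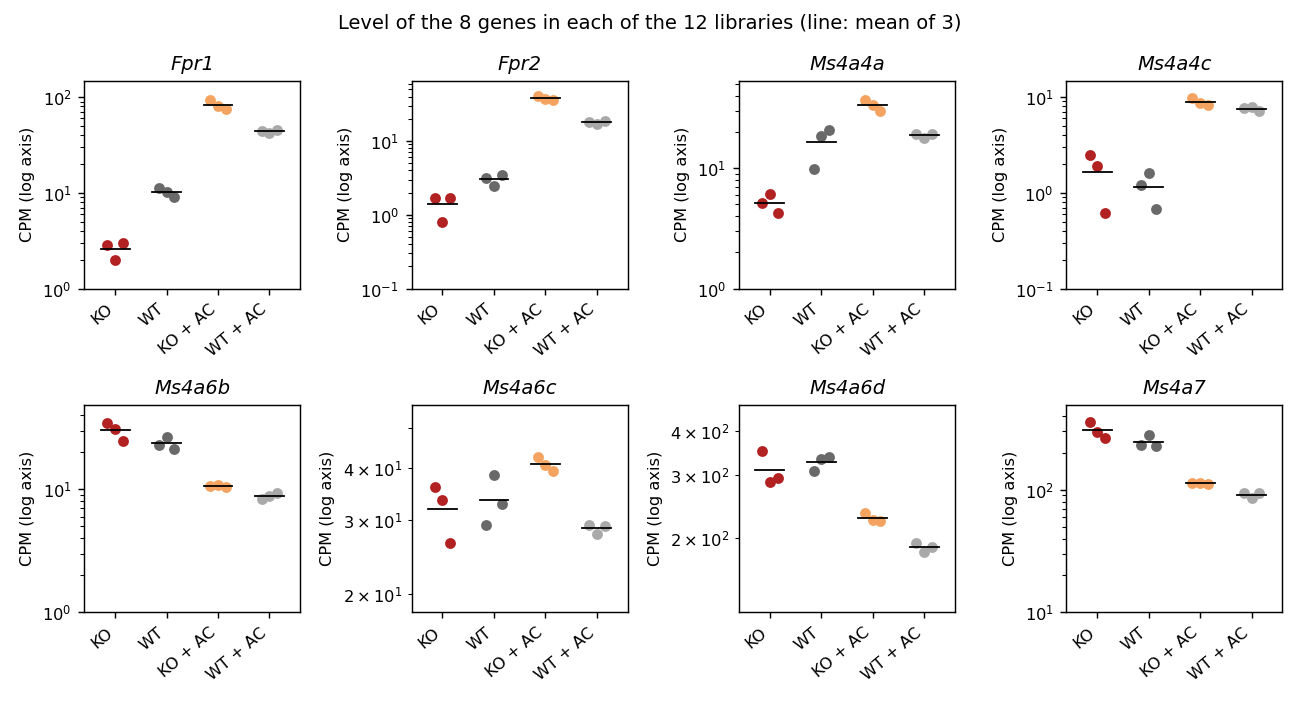
Level of each of the 8 genes (CPM, log axis with its own range per panel) in the 3 libraries of KO, WT, KO + AC and WT + AC; each point is 1 library and the line is the group mean. Fpr1, Fpr2 and Ms4a4a lie lower in KO than in WT and higher in KO + AC than in WT + AC, without overlap, while the KO and WT points of the other 5 genes overlap.

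Ms4a4a, the member that binds dectin-1, had the same order as the receptors. It was at 5.16, 6.09 and 4.27 CPM in KO libraries, against 9.77, 18.7 and 20.6 CPM in WT libraries. The WT libraries were spread, with WT 1 well below the other WT libraries, but the groups did not overlap. The log2 fold change was -1.66 (SE 0.233). With AC it was at 36.6, 33.7 and 29.6 CPM in KO + AC libraries, against 19.3, 17.8 and 19.2 CPM in WT + AC libraries (log2 0.80, SE 0.0671), again without overlap and with KO + AC above. Within the counts of the 6 Ms4a members, Ms4a4a took 0.657 to 0.925% in KO, 1.62 to 3.22% in WT, 6.99 to 8.17% in KO + AC and 5.37 to 5.5% in WT + AC libraries.

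The other 5 members overlapped between KO and WT libraries. Ms4a4c, the gene next to Ms4a4a, had few reads without AC, at 2.44, 1.87 and 0.610 CPM in KO libraries (36, 28 and 10 reads) and 1.198, 1.59 and 0.682 CPM in WT libraries (20, 26 and 11 reads). These groups overlapped, and the sign of the log2 fold change of 0.48 (SE 0.389) rests on KO 1 and KO 2, since it was -0.92 without them. With AC, Ms4a4c was at 9.76, 8.54 and 8.16 CPM in KO + AC, against 7.62, 7.86 and 7.13 CPM in WT + AC libraries (log2 0.20, SE 0.103). Of its transcript windows, 7.73% also stand in Ms4a4b, which had at most 7 reads without and 20 reads with AC.

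The Ms4a6 genes overlapped between KO and WT and lay higher in KO + AC than in WT + AC libraries. Ms4a6b was at 35.0, 30.9 and 24.9 CPM in KO, against 22.9, 26.9 and 21.2 CPM in WT libraries, and at 10.7, 10.9 and 10.4 CPM in KO + AC, against 8.38, 8.80 and 9.27 CPM in WT + AC libraries. Its log2 fold changes were 0.36 (SE 0.145) and 0.25 (SE 0.0924), with overlap without AC and none with AC. Ms4a6d, the most abundant member per length, was at 351.7, 286.6 and 295.0 CPM in KO, against 308.8, 334.0 and 337.7 CPM in WT libraries. With AC it was at 234.7, 224.5 and 223.1 CPM in KO + AC, against 194.5, 183.4 and 189.3 CPM in WT + AC libraries. The log2 fold changes of Ms4a6d were -0.07 (SE 0.125) and 0.24 (SE 0.0353), so that KO and WT overlapped while KO + AC lay above WT + AC.

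Ms4a6c was at 36.0, 33.6 and 26.4 CPM in KO, against 29.2, 38.4 and 32.8 CPM in WT libraries, and at 42.6, 40.7 and 39.4 CPM in KO + AC, against 29.3, 27.8 and 29.1 CPM in WT + AC libraries. The first pair of groups overlapped and the second did not, with log2 fold changes of -0.07 (SE 0.142) and 0.49 (SE 0.0533). Ms4a6c counts are uncertain, because 1088 of its 2050 exonic bases overlap BE692007 on the opposite strand and the strand setting of the counting is not given in the sources used here. BE692007 had 27 to 56 reads without and 211 to 325 reads with AC, while Ms4a6c had 433 to 628 and 559 to 812 reads.

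Ms4a7, a macrophage marker in mouse tissues, was at 355.2, 299.2 and 266.0 CPM in KO, against 230.6, 281.4 and 227.5 CPM in WT libraries, which overlapped through WT 2. With AC it was at 113.2, 113.4 and 112.6 CPM in KO + AC, against 93.6, 85.0 and 95.1 CPM in WT + AC libraries, with no overlap. Its log2 fold changes were 0.32 (SE 0.134) and 0.29 (SE 0.0405). Without AC, those of Ms4a6b and Ms4a7 were 0.76 and 0.58 with the length and GC correction, and 0.07 and 0.11 without KO 1 and KO 2.

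Counted over the set, Fpr1, Fpr2 and Ms4a4a lay lower in KO than in WT without overlap, as did 17.2% of all tested genes. The other 5 overlapped. All 8 members lay higher in KO + AC than in WT + AC without overlap, as did 13.0% of all tested genes. The members' median log2 fold change was -0.07 without AC, beside 0.02 over all tested genes, and 0.39 with AC, beside -0.02. Of the 12125 genes tested in both tables, 4.34% lay lower in KO and higher in KO + AC without overlap, as Fpr1, Fpr2 and Ms4a4a did. Another 1.8% lay lower in both. If the labels with AC were turned round, every gene would change side with AC. These 3 would then lie lower in both, together with the same 4.34% of genes. Since the set was chosen on these contrasts, its counts are no evidence about it. The genotype comparisons share no libraries.

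**Figure D2:**
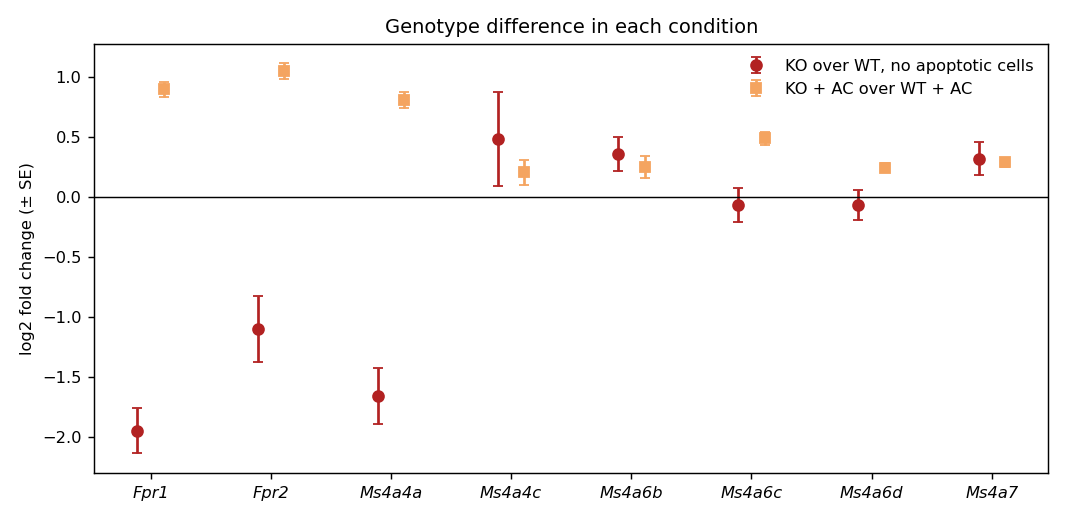
Log2 fold change of KO over WT (circles) and of KO + AC over WT + AC (squares) for the 8 genes, from the separate edgeR fits, with bars of 1 SE. Fpr1, Fpr2 and Ms4a4a lie below 0 without AC (-1.95, -1.10 and -1.66) and above 0 with AC (0.89, 1.05 and 0.80).

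The set as a whole was also compared between libraries with and without AC. Averaged over the genotypes, this difference uses neither genotype contrast that chose the members, and it was tested for them. A difference of this kind was called (Benjamini-Hochberg adjusted p under 0.05) for 90.3% of all 16810 tested genes, 51.4% higher and 38.9% lower with AC, so that the 7 of 8 members called (4 higher, 3 lower) are near that background. The median over all tested genes was 0.28 on the log2 scale, and it became -0.12 after a correction for exonic length and GC content, with 8642 genes called higher and 6534 lower before and 6909 and 8031 after the correction.

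Fpr1 averaged 83.5 ± 9.06 CPM in KO + AC, against 2.62 ± 0.531 CPM in KO libraries, and 44.2 ± 1.45 CPM in WT + AC, against 10.1 ± 1.14 CPM in WT libraries (SD, n = 3 each). The difference averaged over the genotypes was 3.56 on the log2 scale (SE 0.0895, edgeR adjusted p = 1.03e-23), and 3.28 above the median of all genes. Fpr2 averaged 37.7 ± 2.86 CPM in KO + AC, against 1.40 ± 0.519 CPM in KO, and 17.96 ± 0.922 CPM in WT + AC, against 3.03 ± 0.526 CPM in WT libraries. Its difference was 3.65 (SE 0.112, edgeR adjusted p = 9.96e-22). Both receptors were higher with AC in each genotype without overlap, where 86.7% of all genes did not overlap in KO and 86.6% in WT. Averaged over the genotypes, both stayed higher after the length and GC correction, at 2.24 and 1.98.

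The rise with AC was larger in KO for both receptors, given as a description because it restates the genotype differences. Fpr1 was higher by 4.99 on the log2 scale (SE 0.137) in KO + AC than in KO, beside 2.12 (SE 0.113) in WT + AC over WT. Fpr2 was higher by 4.74 (SE 0.166) in KO + AC than in KO, beside 2.56 (SE 0.15) in WT + AC over WT. Ms4a4a was higher by 2.69 (SE 0.213) in KO + AC than in KO, while WT + AC and WT overlapped, at 0.20 (SE 0.188).

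Among the Ms4a members, Ms4a4c was higher with AC by 2.57 on the log2 scale (SE 0.175, edgeR adjusted p = 2.28e-13), with 7.13 to 9.76 CPM in libraries with AC and 0.610 to 2.44 CPM in those without. The length and GC correction left 1.24 of it (edgeR adjusted p = 4.65e-05, against a range of 1.57e-73 to 4.65e-05 over its alternatives). Ms4a4a averaged 1.44 higher (SE 0.143, edgeR adjusted p = 3.11e-08), a direction that the length and GC correction turned round to -1.295 (edgeR adjusted p = 7.36e-06, against a range of 1.08e-51 to 0.000511 over its alternatives). Ms4a7 and Ms4a6b fell with AC, by 1.44 (SE 0.0713, edgeR adjusted p = 5.15e-17) and by 1.46 (SE 0.0861, edgeR adjusted p = 2.52e-15). Ms4a6d fell by 0.62 (SE 0.061, edgeR adjusted p = 2.05e-10), and was at -1.41 with the correction. These 3 genes were lower with AC in both genotypes without overlap. Averaged over the genotypes, they stayed lower after the correction.

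Ms4a6c had a difference of 0.07 (SE 0.0766, edgeR adjusted p = 0.408), which was not called. It became -0.66 with the length and GC correction (edgeR adjusted p = 9.52e-08), -0.01 without KO 3 (edgeR adjusted p = 0.907) and 0.19 without KO 1 and KO 2 (edgeR adjusted p = 0.0126). The neighbours Ms4a6b and Ms4a6c, whose promoters share the run shown above, were at -1.46 and 0.07. This contrast rests on the uncertain Ms4a6c counts, which overlap BE692007, and with the length and GC correction both genes were lower. The 7 T cell markers, genes that Jurkat cells express from the human genome, summed to 25.3 to 31.0 CPM in KO + AC and 30.5 to 35.5 CPM in WT + AC. Without AC they summed to 1.77 to 3.33 CPM in KO and 1.35 to 1.8 CPM in WT libraries. Most of each sum with AC was Lck. Of the 4 markers tested, Lck, Cd3e and Cd3g were called higher with AC and Cd2 was not. Cd3d, Cd5 and Trac did not pass the filter on low counts. The part of human reads in the members' counts was not tested.

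**Figure D3:**
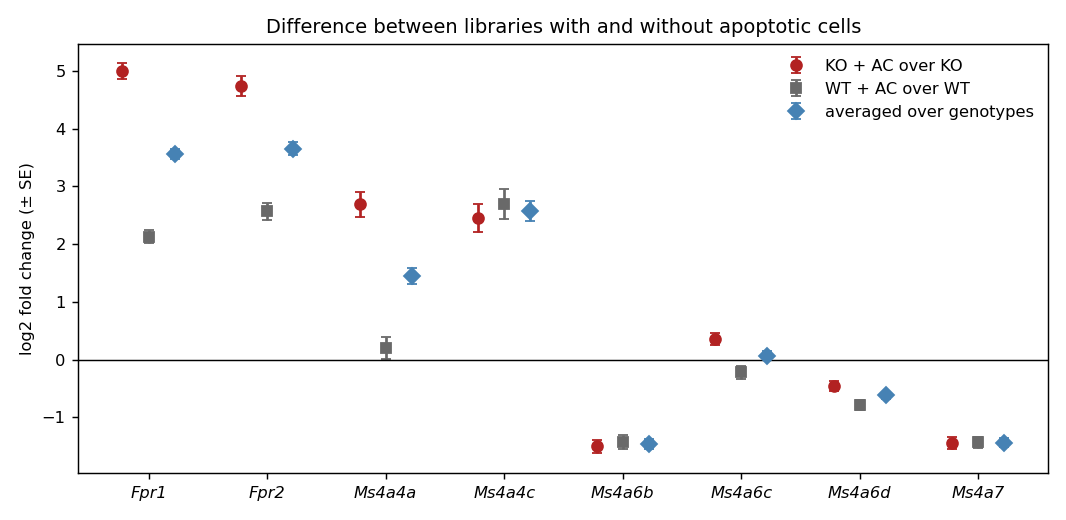
Log2 fold change of libraries with AC over libraries without, in KO (circles), in WT (squares) and averaged over the genotypes (diamonds), from the joint edgeR fit, with bars of 1 SE. The receptors and Ms4a4c lie above 0, Ms4a6b, Ms4a6d and Ms4a7 below, and Ms4a4a is at 2.69 in KO and 0.20 in WT; its average of 1.44 became -1.295 with the length and GC correction.

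The order of the members was compared on levels per kilobase of exon, in CPM per kb. In KO libraries Ms4a6d led with 179.3 ± 20.4, ahead of Ms4a7 with 68.9 ± 10.1 and Ms4a6c with 15.6 ± 2.43 CPM per kb. Ms4a6b (6.75) and Ms4a4a (6.19) overlapped next, followed by Fpr1 (1.98) and, overlapping each other, Fpr2 (1.08) and Ms4a4c (0.938 CPM per kb). In WT libraries the leaders were the same, with Ms4a6d at 188.4 ± 9.05 and Ms4a7 at 55.4 ± 6.8 CPM per kb, but Ms4a4a came next at 19.6 ± 6.93, overlapping Ms4a6c at 16.3 CPM per kb. Fpr1 (7.66), Ms4a6b (5.28), Fpr2 (2.34) and Ms4a4c (0.661 CPM per kb) followed without overlap.

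With AC the receptors moved up this order, which uses CPM without the length and GC correction. With that correction the differences with AC were 2.24 for Fpr1, 1.98 for Fpr2 and -1.295 for Ms4a4a. The order was not worked out with it. In KO + AC libraries Ms4a6d had 131.1 ± 3.65 CPM per kb, followed without overlap by Fpr1 (63.1), Ms4a4a (39.8), Fpr2 (29.1), Ms4a7 (25.4), Ms4a6c (20.0), Ms4a4c (5.04) and Ms4a6b (2.38 CPM per kb). In WT + AC libraries Ms4a6d had 109.0 ± 3.21 and Fpr1 33.4 ± 1.1 CPM per kb. Ms4a4a (22.4) and Ms4a7 (20.5) overlapped, as did Ms4a6c (14.0) and Fpr2 (13.9), ahead of Ms4a4c (4.3) and Ms4a6b (1.97 CPM per kb).

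**Figure D4:**
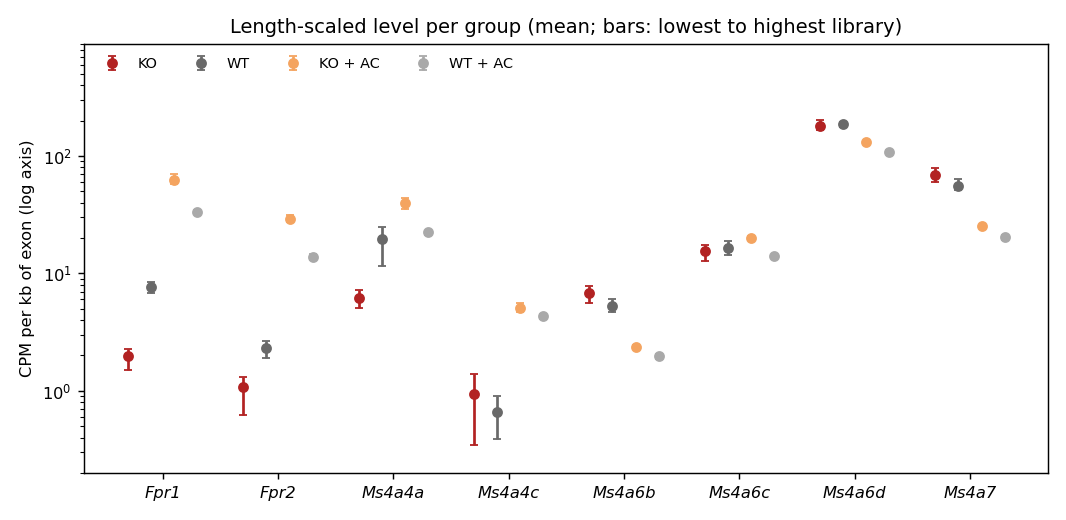
Level per kilobase of exon (CPM per kb, log axis) of the 8 genes in KO, WT, KO + AC and WT + AC, as the mean of 3 libraries with bars from the lowest to the highest library. Ms4a6d is the highest in all 4 groups, from 109.0 to 188.4 CPM per kb, and the group means of Fpr1 lie between 1.98 in KO and 63.1 CPM per kb in KO + AC. No length and GC correction was applied to these levels.

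Most of the other Ms4a genes were near 0. Of 13 listed, 2 were tested without AC and 4 with AC, and none was called between the genotypes by edgeR or DESeq2. At an unadjusted p under 0.05, Ms4a14 was lower in KO and Ms4a1 higher in KO + AC. Ms4a8a averaged 33.9 ± 7.37 CPM in KO and 37.0 ± 2.8 CPM in WT, and 13.4 ± 0.78 CPM in KO + AC and 13.7 ± 0.187 CPM in WT + AC libraries (SD, n = 3 each). It fell by 1.39 with AC on the log2 scale (SE 0.085, edgeR adjusted p = 6.03e-15). Ms4a14 was higher with AC by 1.81 (SE 0.12, edgeR adjusted p = 7.12e-14), and Ms4a1 by 1.88 (SE 0.4, edgeR adjusted p = 8.14e-05) from at most 21 reads.

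Genes of the same pathways were counted on lists chosen with earlier results known. Over all tested genes, 16.2% were called between KO and WT (7.94% higher, 8.24% lower in KO) and 11.3% between KO + AC and WT + AC (6.58% higher, 4.75% lower in KO + AC), beside the 51.4% higher and 38.9% lower with AC given above. Of 7 genes of formyl peptide receptor ligands, 3 were tested. Hebp1, whose product is the source of a chemotactic peptide, was higher in KO, at 142.0 ± 23.6, against 90.2 ± 1.21 CPM in WT libraries (log2 0.65, SE 0.13, edgeR adjusted p = 0.00345), a call lost without KO 1 and KO 2. With AC, Saa3, a serum amyloid A, was higher in KO + AC by 0.37 (SE 0.035, edgeR adjusted p = 1.54e-11), and Anxa1, encoding annexin A1, fell by 0.15 (SE 0.033, edgeR adjusted p = 0.000679). Both calls were lost in the joint fit of the 12 libraries. All 3 fell with AC, Hebp1 by 1.86, Anxa1 by 1.46 and Saa3 by 0.98.

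Of the genes that carry the receptors' signal inside the cell, 1 of 20 tested was called without AC. This was Gnai3, a G protein alpha subunit, at 143.0 ± 11.6 in KO, against 196.0 ± 33.3 CPM in WT libraries (log2 -0.45, SE 0.13, edgeR adjusted p = 0.0259). It was not called when KO 1, KO 2, WT 2 or WT 3 was left out, nor with the length and GC correction, at -0.16. With AC, 8 of 21 were higher in KO + AC, where 6.58% of all genes were, and none was lower (14 and 0 at an unadjusted p under 0.05, 7 and 0 with DESeq2). They were led by Pik3cg, the catalytic subunit of phosphoinositide 3-kinase gamma, by 0.24 (SE 0.04, edgeR adjusted p = 2.23e-05), its regulatory subunit Pik3r5 by 0.16 (SE 0.033, edgeR adjusted p = 0.000477) and the Src family kinase Lyn by 0.18 (SE 0.037, edgeR adjusted p = 0.000529). The count ran from 3 without KO + AC 1 to 12 without KO + AC 3, and was 5 without WT + AC 2, 13 with the length and GC correction and 0 in the joint fit. The median was 0.09 on the list and -0.02 over all tested genes. In the same comparison 4 of 7 macrophage markers (Adgre1, Csf1r, Cd68 and Lyz2) were also higher in KO + AC and none was lower. Of the 7 fibroblast markers, 5 were lower and none was higher. In the joint fit 0 macrophage markers were higher and 3 fibroblast markers were lower. With AC against without, 11 of 20 were higher and 7 lower, near the 51.4% and 38.9% of all genes.

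Among other chemoattractant receptors, neither gene called between the genotypes without AC was called with AC. Without AC, 2 of 15 were lower in KO, where 8.24% of all genes were, and none was higher (6 and 1 at an unadjusted p under 0.05, 3 and 0 with DESeq2). The sphingosine 1-phosphate receptor S1pr1 averaged 23.2 ± 1.07 in KO, against 36.3 ± 2.98 CPM in WT libraries (log2 -0.64, SE 0.13, edgeR adjusted p = 0.00345). The chemokine receptor Ccr2 averaged 3.73 ± 1.21 in KO, against 5.8 ± 0.893 CPM in WT libraries (log2 -0.63, SE 0.21, edgeR adjusted p = 0.0452). Ccr2 was not called with DESeq2, nor with the length and GC correction, at -0.15. C3ar1, the complement C3a receptor, had a log2 fold change of -0.40 that edgeR did not call. In KO + AC over WT + AC, S1pr1 was at -0.10 and Ccr2 at -0.43, neither called. The count was 1 without KO 1, KO 2, WT 2 or WT 3, 5 without KO 3 and 0 without KO 1 and KO 2 together. The list's median was -0.20, beside 0.02 over all tested genes.

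With AC, 8 of 16 of these receptors were higher in KO + AC, beside 6.58% of all genes, and none was lower (10 and 0 at an unadjusted p under 0.05, 7 and 0 with DESeq2). Cmklr1, the chemerin receptor, averaged 233.0 ± 4.77 in KO + AC, against 178.0 ± 9.99 CPM in WT + AC libraries (log2 0.36, SE 0.037, edgeR adjusted p = 2.16e-10). Ccrl2 was higher by 0.18 (SE 0.035, edgeR adjusted p = 0.00013) and Gpr84, a receptor for medium-chain fatty acids, by 0.28 (SE 0.065, edgeR adjusted p = 0.00225). The count was 5 without WT + AC 2 or WT + AC 3 and 1 in the joint fit, where Cmklr1 was the gene called. The list's median was 0.13, beside -0.02. Macrophage markers, as given above, were also higher in KO + AC, 4 of 7 of them. With AC against without, Gpr84 was higher by 5.75 (SE 0.14, edgeR adjusted p = 4.61e-24), Cmklr1 by 2.51 and Ccrl2 by 1.83, and 6 of 16 receptors were higher and 7 lower, beside 51.4% and 38.9% of all genes.

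Partners and relatives of MS4A proteins were mostly lower with AC. Clec7a averaged 402.0 ± 4.52 in KO + AC and 432.0 ± 7.58 CPM in WT + AC, and 1660.0 ± 114.0 in KO and 1440.0 ± 145.0 CPM in WT libraries. It fell with AC by 1.89 (SE 0.063, edgeR adjusted p = 5.75e-21), and was lower in KO + AC than in WT + AC by a log2 fold change of -0.13 (SE 0.033, edgeR adjusted p = 0.00509). The related membrane protein genes Tmem176b and Tmem176a fell by 3.39 and 3.24. In all, 9 of 10 fell with AC, where 38.9% of all genes did, and Cav1 was higher. Between the genotypes, Tmem176b was the 1 gene called without AC (log2 0.41, SE 0.13, edgeR adjusted p = 0.0335), a call lost without KO 1, KO 2, WT 2 or WT 3 and at 0.20 with the length and GC correction. Fcer1g, an Fc receptor subunit, and Flot1, a lipid raft protein, were higher in KO + AC than in WT + AC, by 0.14 and 0.16. The calls of Clec7a, Fcer1g and Flot1 between KO + AC and WT + AC were lost in the joint fit, and that of Flot1 also with DESeq2 and without KO + AC 1 or WT + AC 1.

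Of 9 myeloid transcription regulators, Nr3c1, the glucocorticoid receptor, was the 1 gene called between the genotypes in either condition. It averaged 35.9 ± 5.93 in KO, against 49.6 ± 2.62 CPM in WT libraries (log2 -0.46, SE 0.13, edgeR adjusted p = 0.0231), and 88.2 ± 6.11 in KO + AC, against 71.9 ± 1.51 CPM in WT + AC libraries (log2 0.27, SE 0.044, edgeR adjusted p = 1.1e-05). The first call was lost without KO 1, KO 2 or WT 3 and at -0.22 with the length and GC correction, and the second was lost in the joint fit. Spi1 averaged 523.0 ± 93.8 CPM in KO, 417.0 ± 19.5 in WT, 486.0 ± 14.2 in KO + AC and 454.0 ± 12.8 CPM in WT + AC libraries. It was not called in any comparison of the main fits. Among the alternatives, Spi1 was called in 2 of 13 for KO against WT and in 1 of 12 for KO + AC against WT + AC. With the length and GC correction it was higher with AC than without by 0.246 (edgeR adjusted p = 6.78e-05). With AC, Irf8 fell by 2.12, Maf by 2.03 and Pparg by 1.77. Of 7 glucocorticoid targets tested, Il1r2 was higher (log2 1.16, SE 0.36, edgeR adjusted p = 0.0339) and Cd163 lower (log2 -1.53, SE 0.4, edgeR adjusted p = 0.016) in KO, both under 2 CPM and lost without KO 1, KO 2 or WT 3. Il1r2 was also lost without WT 1 and with the length and GC correction, Cd163 without WT 2, and DESeq2 gave neither an adjusted p. None of 6 was called in KO + AC against WT + AC by edgeR or DESeq2, nor passed an unadjusted p of 0.05, and 1, Sgk1, was called higher without KO + AC 3. With AC against without, Tsc22d3 fell by 2.48 and Per1 was higher by 1.75.

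Among markers of other cell types, the monocyte sum moved with the receptors and the fibroblast sum moved the opposite way. The 6 monocyte markers summed to 26.7 to 28.5 CPM in KO, against 45.2 to 49.2 CPM in WT, and to 64.6 to 67.8 CPM in KO + AC, against 38.9 to 40.5 CPM in WT + AC libraries, in the same order of the genotypes as the receptors. Among them F13a1, a coagulation factor XIII subunit, had log2 fold changes of -1.52 in KO over WT and 0.48 in KO + AC over WT + AC, while Plac8 was at 1.21 without AC. The 7 fibroblast markers had the opposite order, at 928.0 to 1210.0 CPM in KO, against 619.0 to 767.0 CPM in WT, and 264.0 to 285.0 CPM in KO + AC, against 384.0 to 422.0 CPM in WT + AC libraries. The 8 neutrophil markers summed to 21.1 to 27.0 in KO, 20.8 to 22.3 in WT, 13.4 to 15.1 in KO + AC and 11.6 to 12.0 CPM in WT + AC libraries, with Ly6g at 0 in KO and WT. The 5 B cell markers summed to at most 4.72 CPM and the 5 mast cell markers to at most 5.14 CPM in any library. In such bulk libraries fewer cells of a type and less RNA per cell cannot be told apart, and the part of these markers in the members' differences was not tested.

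Genes whose profiles were most like the members' were found over the 12 libraries and 9792 genes, after taking the mean of each condition from log2(CPM + 1). Likeness was the root mean square of the differences between these profiles, on the log2 scale. Nearest to Fpr1 were F13a1 (0.241), Marco (0.288), Fpr2 (0.334), Ednrb (0.335) and Cd38 (0.335), where the median gene was at 0.676. Marco encodes a scavenger receptor, Ednrb an endothelin receptor and Cd38 an ectoenzyme that uses NAD. Nearest to Fpr2 were Clec4a1 (0.211), Tlr7 (0.242), Acpp (0.248), Hp (0.253) and Nlrp1b (0.269), beside a median of 0.492. Nearest to Ms4a4a were F13a1 (0.27), Clec4a1 (0.312), P2ry10b (0.331), Wwp1 (0.336) and Fpr1 (0.338), beside a median of 0.643.

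These neighbours were found by their resemblance, so their values are a description. F13a1, listed for both Fpr1 and Ms4a4a, averaged 8.81 CPM in KO, 25.4 in WT, 18.9 in KO + AC and 13.3 CPM in WT + AC libraries. Marco averaged 5.38 in KO, against 11.9 CPM in WT, and 44.8 in KO + AC, against 29.2 CPM in WT + AC libraries. Clec4a1, a C-type lectin, averaged 61.04 in KO, against 110.3 CPM in WT, and 49.97 in KO + AC, against 30.5 CPM in WT + AC libraries. F13a1 and Clec4a1 were lower in WT + AC than in WT libraries, unlike the receptors. Among the Ms4a genes, Ms4a4a was the 7th nearest to Fpr1, while Ms4a6c stood at rank 2361, Ms4a6d at 2481, Ms4a7 at 7030 and Ms4a6b at 7581.

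**Figure D5:**
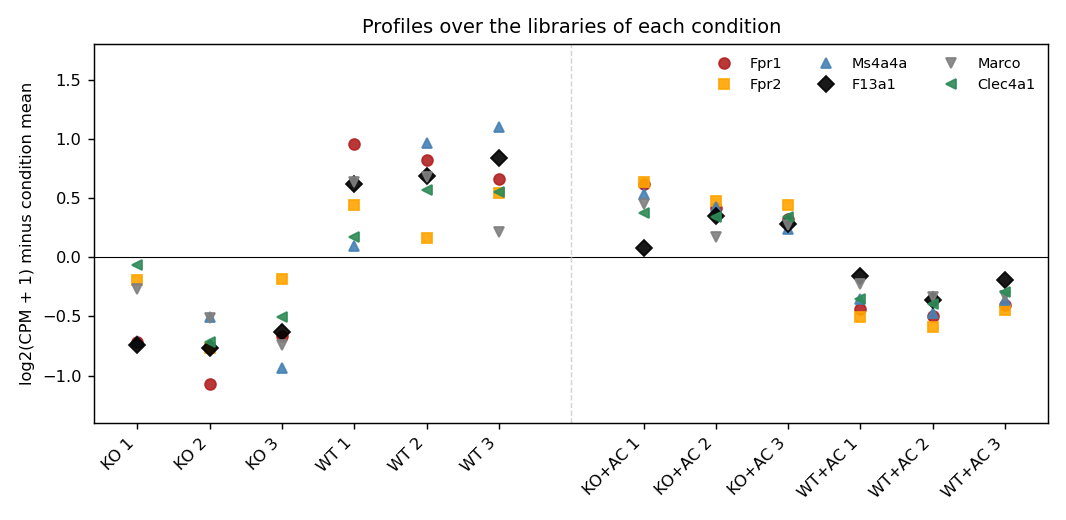
Profiles of Fpr1, Fpr2, Ms4a4a and of their near neighbours F13a1, Marco and Clec4a1 over the libraries, as log2(CPM + 1) minus the mean of the condition; the dashed line parts the conditions. All 6 genes are below 0 in the KO and above 0 in the WT libraries, and above 0 in the KO + AC and below 0 in the WT + AC libraries.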

How the data were processed

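Bulk RNA sequencing libraries of mouse macrophages were compared, 3 in each of 4 groups. The authors deposited raw read counts per gene symbol, per the file headers 1 column per library. Per the submitters' processing notes, reads were handled with fastp and HISAT2 2.0.5 on mm10, and DESeq2 1.20.0 is also named. Counter, annotation and strandedness are not stated in the sources used here. The tables hold 54957 symbols without and 55367 with AC, and 54582 were shared.

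Genotypes were compared table by table. AC differences came from 1 joint fit of the 12 libraries, from which CPM are printed. Fits used edgeR 4.0.16 in R 4.3.3, with filterByExpr, TMM scaling and its robust two-sided quasi-likelihood test, and a Benjamini-Hochberg adjusted p under 0.05 was called. SE were derived from the test statistic. The steps were tested on simulated data, where the share of false calls lay above the threshold in every fit, most for the interaction, which also missed the most true changes. Members and lists were chosen with earlier results of these data known. Genes of 2 lists are not reported here and were left out of their counts. Named list genes are the 3 of smallest p per list and comparison. Genes named beyond that rule, such as Cav1, F13a1 and Plac8, were chosen after their values were seen. Neighbours were sought among genes averaging 2 CPM or more in each table. Lengths, GC content and shared windows of 50 bases come from GENCODE vM21. Alternatives were DESeq2 1.42.0, its size factors, no filter, a replicate block, a length and GC correction, the joint fit, and libraries left out.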

Additional observations from a re-analysis of the deposited data

Results flagged for a closer look

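The genotype difference of 3 members ran in opposite directions in the libraries without and with AC, with every library of one genotype on one side. The difference between the log2 fold changes, KO + AC over WT + AC less KO over WT in the joint fit, was 2.86 for Fpr1, 2.17 for Fpr2 and 2.49 for Ms4a4a. These differences chose the members and were not tested. The summed monocyte markers turned round in the same way, by 1.5, and the summed fibroblast markers in the opposite way, by -1.13, both untested.

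For the 39 genes named from the pathway lists the interaction of genotype and AC was tested in the joint fit, where 12.7% of all genes were called. It was called for 9, and the other 30 had edgeR adjusted p from 0.0796 to 1.0. With edgeR adjusted p from 0.000899 to 0.0405 it was 0.532 for C3ar1, 1.91 for Cd163, 0.505 for Cmklr1, 0.571 for Gnai3, -0.498 for Hebp1, 0.349 for Lyn, 0.758 for Nr3c1, 0.581 for Pik3cg and 0.57 for S1pr1. The named genes were picked by small p, also in the genotype comparisons, so 9 of 39 cannot be set against 12.7%. Over all tested genes of a list, the interaction was called for 3 of 20 in receptor signalling and 4 of 16 other chemoattractant receptors. It was called for 1 of 3 ligands, 1 of 9 myeloid regulators and 1 of 8 glucocorticoid targets. None of 10 partners and relatives of MS4A proteins and none of 4 other Ms4a genes was called. The markers F13a1 and Hp, also named as neighbours for their resemblance to the members, had differences of 2.02 and 1.39, given without a test. For Kif13b itself it was 0.74 (edgeR adjusted p = 0.000815).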

How the results depend on the processing

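Across the alternatives, Fpr1, Fpr2 and Ms4a4a stayed lower in KO (Fpr1 from -2.10 to -1.76, Fpr2 from -1.31 to -0.83, Ms4a4a from -1.94 to -1.46 in 13 alternatives each) and higher in KO + AC (0.81 to 0.97, 0.99 to 1.09 and 0.74 to 0.89 in 12). With AC against without, Ms4a4a reversed to -1.295 and Ms4a6c to -0.656 with the length and GC correction, and Ms4a6c ran from -0.00795 (without KO 3) to 0.108 with 1 library left out. The members called there were 7, and 8 with that correction and without KO 1 and KO 2, with 7 to 7 when 1 library was left out. Of all genes, 2045 were called for KO against WT: 770 with the length and GC correction (457 higher, 313 lower, against 1004 and 1041), 3999 in the joint fit, 95 without KO 1 and KO 2, and 312 to 4166 with 1 library left out. KO + AC against WT + AC had 1866 calls (1083 higher, 783 lower), 1220 with DESeq2 (872 and 348), 157 in the joint fit, and 1192 to 2142 with 1 library left out. AC against none had 15176 calls, 24240 with no filter and 15318 to 15726 with 1 library left out. The interaction had 2132 calls, 1043 without KO 1 and KO 2, and 1129 to 4330 with 1 library left out. The cause of these shifts was not tested. Same-numbered libraries did not deviate together (r of -0.204, -0.00143 and 0.112 without AC, 0.0207, -0.0687 and -0.0805 with AC), and a replicate block gave 2496, 1649, 15127 and 2030 calls for the 4 comparisons, in the order above. At 10 to 56 reads, Fpr2 and Ms4a4c without AC are limited by depth.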
